A study of Mus musculus with 8 samples.

Results

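Stromal feeder-like cells were the few cells of the cultures that carried transcripts of a fibroblast feeder layer. They were chosen by 4 genes, and some also held RNA of blood cells. A UMI (unique molecular identifier) stands for 1 captured RNA molecule. Cells were retained when they had 300 or more genes with a UMI and no more than 10% mitochondrial UMIs, and a retained cell was a member when Cald1, Aebp1, Ptn and Cryab together had at least 3 UMIs and at least 10 UMIs per 10000. The rule found 51 of 8321 retained cells in the deoxycholic acid library and 65 of 9063 in the media control library, 116 of 17384 retained cells and of 17866 barcodes in all.

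The cultures held whole mouse bone marrow cells on AFT024, a line of embryonic mouse liver fibroblasts that was irradiated before use, in long-term culture medium with hydrocortisone. One group received deoxycholic acid, a bile acid that gut bacteria make from one secreted by the liver, at 35 µM for 1 week, and the other received the medium alone for 1 week. All cells, adherent ones included, were collected with brief trypsin, sorted as lineage-negative and profiled with a 10x Genomics 3′ kit. The labels list 4 samples in each group, but cell names carry the group only, so each group stood as 1 library. No difference between the groups could be tested, and every interval below is a 95% interval that covers counting error only. The sources used here do not give the age, sex or strain of the donor mice.

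Feeder fibroblasts keep blood stem and progenitor cells alive in culture through secreted and membrane-bound factors and through the matrix they lay down. AFT024 was derived from fetal liver, where blood stem cells expand before birth, and is known for membrane-bound Dlk1 among other factors. Irradiation stops the division of such a layer, while its cells go on transcribing matrix, contractile and stress genes.

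The members were shallow beside the cells they were mixed with. They had a median of 3005 UMIs in the deoxycholic acid library and 4584 UMIs in the media control library, against 14876.5 UMIs and 19239 UMIs in the other retained cells of the same libraries. Their summed depth was 250299 UMIs under deoxycholic acid and 541050 UMIs under medium alone. A single cell held 17.7% of the deoxycholic acid members' UMIs and another held 10.7% of the media control members' UMIs, and the 5 deepest cells held 41.7% and 38.2%. No barcode was shared between members of the libraries, although 25 barcodes were shared among all cells.

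All 4 genes of the rule were detected in 5 members of the deoxycholic acid library and in 14 members of the media control library, and only 1 of them in 5 and 3 members. At the edge of the rule, 6 members had exactly 3 UMIs of the 4 genes, while 3 cells of the deoxycholic acid library had 2 such UMIs at 10 or more per 10000 and stayed outside. Another 29 cells, 7 under deoxycholic acid and 22 under medium alone, had at least 3 UMIs but fewer than 10 per 10000, with 0.323 to 9.76 per 10000. The cell filter removed 12 further cells that met the marker rule, 3 from the deoxycholic acid library and 9 from the media control library, with a median of 12.04% mitochondrial UMIs.

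The share of feeder-like cells was close in the libraries. It was 0.613% of retained cells (exact binomial 0.457 to 0.805) under deoxycholic acid and 0.717% (0.554 to 0.913) under medium alone, a ratio of 0.855 (0.580 to 1.25). The interval spans 1, so a difference was not detectable at this number of cells. The part of the sort in the share was not tested.

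Genes that the rule did not use also set the members apart. Cdkn2a, which encodes the cell cycle inhibitor p16 and the p53 regulator Arf, stood at 933 CPM (its share of the UMIs summed over cells, on a scale where 100 CPM is 1 UMI per 10000) in the members against 0.674 CPM in the other retained cells. Lgals1, the secreted lectin galectin-1, stood at 7630 CPM against 240.0 CPM, and Cyb5r3, a cytochrome b5 reductase, at 681 CPM against 25.6 CPM. S100a10, the partner of annexin A2, stood at 3039 CPM against 119 CPM. These values describe the cells, since the members were picked from the same counts. Of 12 fibroblast markers 10 had UMIs and 6 were raised at least 4-fold over the other cells, while Thy1 and Lum had no UMI in any member. Of 28 stromal niche factors, a list that holds the rule gene Ptn, 20 had UMIs. Thpo, Flt3l, Igf2, Igfbp2, Igfbp5, Jag1, Lif and Bmp4 had none.

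Marker lists of other cell types differed in how far they were present in the members. Of 10 macrophage markers 7 were at 0, among them C1qa and Csf1r, and the list summed to 11.99 CPM under deoxycholic acid and 5.54 CPM under medium alone. Of 7 endothelial markers 5 were at 0, Pecam1 and Cdh5 included, with sums of 0 and 7.39 CPM. Of 7 adipocyte and reticular cell markers 4 were at 0, Adipoq and Lepr included, and the list summed to 67.9 CPM and 49.9 CPM, beside 62.9 CPM in the other retained cells. Of 7 smooth muscle and pericyte markers Rgs5 and Mcam were at 0, while the other 5 had UMIs. The list summed to 23.97 CPM under deoxycholic acid and 14.8 CPM under medium alone, above the 1.14 CPM of the other cells. Acta2 and Tagln were not on this list and are given with the contractile genes below. Osteoblast and chondrocyte markers were present in part of the members, with UMIs for 7 of 9 genes and 2 raised at least 4-fold. They summed to 268 CPM and 532 CPM against 51.0 CPM in the other cells. Members with any such UMI numbered 19 of 51 and 35 of 65, and 1 cell of each library held 44.8% and 39.2% of these UMIs. Alb, Afp and Ttr of hepatocytes had no UMI, and 9 of 11 erythroid and megakaryocyte markers, the globin genes included, had none.

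RNA of neutrophil genes was present in every member, mostly at a low level. How much of it came from the surroundings was not tested. A list of 27 such genes took a median of 0.370% of a member's UMIs (range 0.0890 to 24.6%) under deoxycholic acid and 0.442% (0.136 to 34.2%) under medium alone, against medians of 23.2% and 23.1% in the other retained cells. S100a8, the most abundant of these genes beside S100a9, had a UMI in 50 of 51 and 64 of 65 members. The list exceeded 5% in 2 and 3 members and 20% in 1 member of each library. Summed over members it made 4.04% of UMIs under deoxycholic acid and 3.39% under medium alone, and 79.8% and 40.9% of those UMIs sat in the single highest cell. A set of 12 pan-leukocyte genes had no UMI in 29 of 51 and 38 of 65 members.

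**Figure D1:**
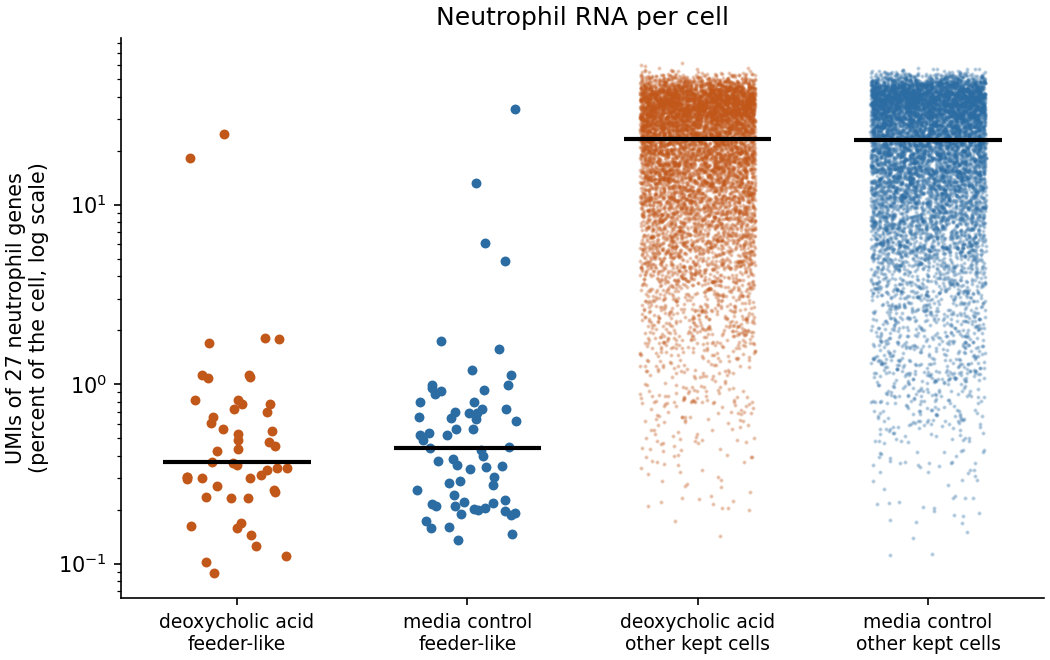
Percent of UMIs from 27 neutrophil genes in each cell, on a log scale, for feeder-like cells and other retained cells of the deoxycholic acid (orange) and media control (blue) libraries. Black bars are medians: 0.370% and 0.442% in feeder-like cells and 23.2% and 23.1% in the other cells; 2 and 3 feeder-like cells lie above 5%.

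A few cells stood apart and are named here because they carry much of what follows. The deepest member of the deoxycholic acid library had 44245 UMIs, 18.2% neutrophil RNA, 16 UMIs of the leukocyte gene Ptprc and 5 UMIs of Y-linked genes beside its 49 UMIs of the rule genes. The next deepest had 21354 UMIs, 0.0890% neutrophil RNA, no Cdkn2a, 2 Y-linked UMIs, and 23 of the 29 Tagln UMIs, 27 of the 30 Acta2 UMIs and 17 of the 21 Col1a2 UMIs of its library. Another, with 7033 UMIs, held 42 UMIs of Pdpn and 39 of Nfat5. In the media control library a cell of 32721 UMIs held 168 of the 258 Cebpb UMIs, 72 of the 80 Sox9 UMIs, 103 UMIs of Hmox1 and 50 of Adamts1. Another, of 9870 UMIs, held 221 UMIs of Sdc4, 46 of Rdh10, 46 of Adamts1 and 32 of Cxcl5.

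Sex-linked transcripts also differed between the members and the cells around them. Xist, the RNA of the inactive X chromosome, had 1 UMI in 1 member under deoxycholic acid and 16 UMIs in 8 members under medium alone. That is 3.995 CPM and 29.6 CPM, against 0.130 CPM and 0.0823 CPM in the other retained cells. The 4 Y-linked genes Ddx3y, Eif2s3y, Kdm5d and Uty had 8 UMIs in 3 members under deoxycholic acid and 2 UMIs in 2 members under medium alone. At the level of the other retained cells, 18.3 and 39.3 such UMIs would have been counted. Leaving out the members that carried a Y-linked UMI moved 32 and reversed 2 of the named ratios, and the larger shifts are given below. Those members included the 2 deepest of the deoxycholic acid library, with 44245 and 21354 UMIs, and the deepest media control member, with 58121 UMIs. Values without Y-linked members are therefore also values without these deep cells.

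Deoxycholic acid and media control members were then compared gene by gene. A gene was measured when it had at least 20 UMIs and 50 CPM in the library where it was higher, and called when the libraries differed at least 2-fold. Of 2253 measured genes, 114 were at least 2-fold higher under deoxycholic acid (5.06%) and 189 at least 2-fold lower (8.39%). In the other retained cells of the same libraries, 5 of the same genes were at least 2-fold higher (0.222%) and 22 at least 2-fold lower (0.976%), from far deeper sums. Over all measured genes in the members 792 were higher and 1461 lower (64.8%), with a median log2 ratio of -0.19. This balance depends on the filter. In the smaller deoxycholic acid sum 20 UMIs stood at 79.9 CPM, so genes higher there had to pass a higher level than the 50 CPM asked under medium alone. With a minimum of 5 UMIs, 1185 of 8135 genes were called higher and 1107 lower. Scaling by the median of ratios in place of the total added 0.19 to every ratio, so ratios between -0.19 and 0 turn positive under it. Genes enriched in the members at least 4-fold over other cells numbered 173, with 17 called higher (9.83%) and 30 called lower (17.3%), against 3 (1.73%) and 16 (9.25%) of the same genes in the other cells.

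Many of these calls rested on 1 cell. Of the 114 genes called higher, 49 had over 50% of their UMIs in a single deoxycholic acid cell, and 53 stayed at least 2-fold higher when each gene's highest cell was left out of both libraries. Over all measured genes that left 65 called higher (2.89%) and 257 called lower (11.4%). The deepest deoxycholic acid member was the highest cell for 51 of the 114, the cell of 7033 UMIs for 28 and the cell of 21354 UMIs for 18. Genes called lower were less concentrated: 29 of 189 had over 50% in 1 media control cell, and 155 stayed at least 2-fold lower without the highest cells. Of 1667 genes spread over at least 10 cells with at most 25% of UMIs in any one, 20 were called higher (1.2%) and 113 lower (6.78%), and of the 98 enriched ones among them, 2 (2.04%) and 8 (8.16%).

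**Figure D2:**
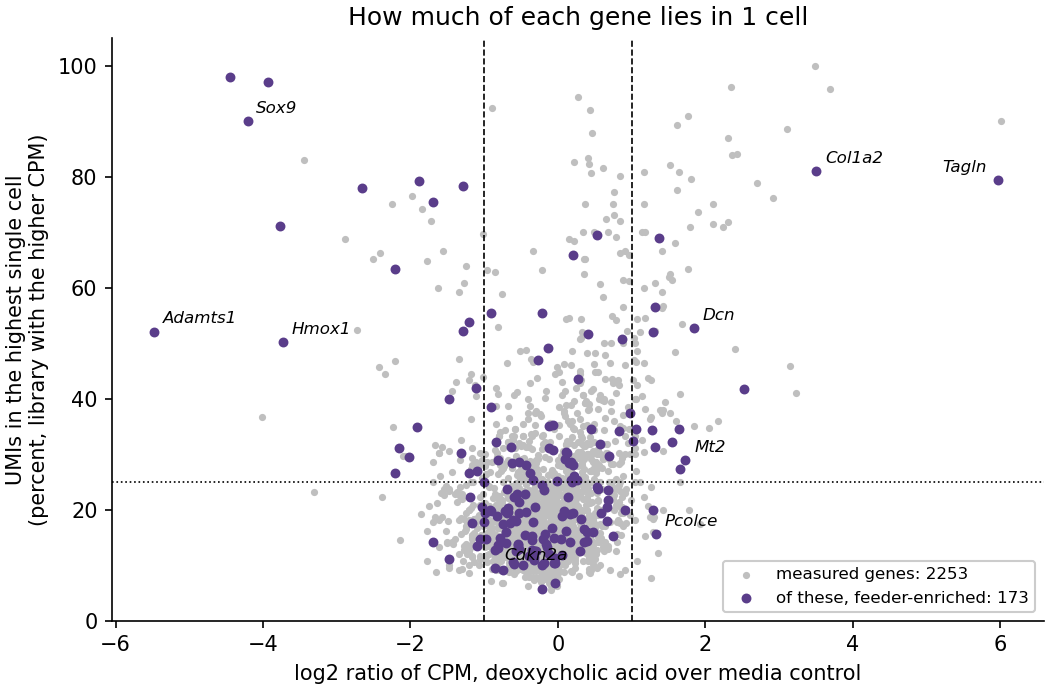
For each of 2253 measured genes, the log2 ratio of CPM in feeder-like cells, deoxycholic acid over media control, against the percent of its UMIs in the single highest cell of the library where it was higher. Purple points are the 173 genes enriched in feeder-like cells, dashed lines mark 2-fold and the dotted line 25%; Tagln and Col1a2 on the right and Sox9 on the left lie high, while Pcolce and Cdkn2a lie below the dotted line.

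None of the 4 genes of the rule differed 2-fold between the libraries, though the intervals of Ptn and Aebp1 lay above 0. Cald1, an actin- and myosin-binding protein, stood at 927 CPM under deoxycholic acid and 830 CPM under medium alone, a log2 ratio of 0.16 (-0.08 to 0.39). Cryab, a small heat shock protein, stood at 284 CPM and 286 CPM, a log2 ratio of -0.01 (-0.44 to 0.40). Ptn, the heparin-binding growth factor pleiotrophin, was at 939 CPM under deoxycholic acid and 734 CPM under medium alone, a log2 ratio of 0.36 (0.12 to 0.59) that was -0.51 under a stricter rule of 6 UMIs and 20 per 10000. Aebp1, a secreted collagen-binding protein, had the largest ratio of the 4, at 459 CPM and 286 CPM and a log2 ratio of 0.68 (0.32 to 1.04). These levels are bounded by the rule and are given as a description.

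Metallothioneins, small cysteine-rich proteins that bind zinc and copper, were higher under deoxycholic acid. Both genes lie next to each other on mouse chromosome 8, and the 250 bases before the annotated start of each are shown because the pair moved together. Zinc acts on these genes through the metal response element. Capitals mark matches on either strand to TGCNCNC, a looser pattern than the core of that element (sequences from RefSeq, GRCm38.p6, + strand, Mt1 chr8:94178839-94179088 and Mt2 chr8:94172368-94172617):
Mt1: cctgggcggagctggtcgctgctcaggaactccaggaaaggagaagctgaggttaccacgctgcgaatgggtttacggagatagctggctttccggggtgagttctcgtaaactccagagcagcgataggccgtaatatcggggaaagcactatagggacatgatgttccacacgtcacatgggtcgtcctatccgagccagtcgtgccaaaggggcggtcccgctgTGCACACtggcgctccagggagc
Mt2: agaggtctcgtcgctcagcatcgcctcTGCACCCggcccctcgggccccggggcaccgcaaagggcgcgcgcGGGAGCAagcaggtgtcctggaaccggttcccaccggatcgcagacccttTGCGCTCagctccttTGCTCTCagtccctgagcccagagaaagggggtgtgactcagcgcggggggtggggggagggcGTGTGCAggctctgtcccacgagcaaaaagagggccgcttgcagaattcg
Mt1 had 1 match and Mt2 had 5, 3 on the strand shown and 2 on the other. At least 1 match occurred in 44.4% of 32851 promoter windows of this length and at least 5 in 0.344%. The windows follow the annotated starts, which may differ from the starts used in these cells, and bases past them were not searched. The counts describe these windows and do not rank the promoters. A match is a description of the letters and not a site, and it need not fit the narrower core of the element.

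Mt2 stood at 3424 CPM under deoxycholic acid and 1031 CPM under medium alone, a log2 ratio of 1.73 (1.58 to 1.89). It had a UMI in 40 of 51 and 48 of 65 members, with per-cell medians of 1529 CPM and 636 CPM. The cells of the libraries overlapped widely, from 0 to 17489 CPM under deoxycholic acid and from 0 to 10014 CPM under medium alone. The deepest deoxycholic acid member held 248 of the 857 Mt2 UMIs, and without the deepest member of each library the log2 ratio was 1.39, and without Y-linked members 1.26. Weighting every cell equally gave 0.84, the lowest of 12 alternatives, all of which kept the sign. Mt1 stood at 9872 CPM under deoxycholic acid and 3275 CPM under medium alone, a log2 ratio of 1.59 (1.5 to 1.68), with 1195 of its 2471 UMIs in the deepest deoxycholic acid member, and at 0.80 without the deepest members, 0.79 without Y-linked members and 0.36 with cells weighted equally. In the other retained cells the ratios ran the same way, 0.58 for Mt1 and 0.63 for Mt2.

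Genes of the collagen matrix were higher under deoxycholic acid per UMI, though they were detected in a minority of cells. Pcolce, which speeds the cleavage of procollagens to collagen, was the most evenly spread of those named here. It stood at 256 CPM under deoxycholic acid and 102 CPM under medium alone, a log2 ratio of 1.33 (0.79 to 1.88), and at 1.26 without the highest cells. UMIs of Pcolce were found in 25 of 51 and 29 of 65 members. With every member thinned to 2000 UMIs, which 32 and 52 members reached, Pcolce was found in 37.5% (21.1 to 56.3) of deoxycholic acid members and 19.2% (9.63 to 32.5) of media control members. It was found in 0% of the thinned other cells of either library. The sign held in 12 of 12 alternatives, from 0.98 to 1.52.

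Fn1, which encodes fibronectin, the fibre-forming glycoprotein that cells adhere to, stood at 384 CPM under deoxycholic acid and 153 CPM under medium alone, a log2 ratio of 1.32 (0.88 to 1.76). It was found in 22 of 51 and 28 of 65 members, and in 25% of thinned members of both libraries. Dcn, the collagen-binding proteoglycan decorin, was at 220 CPM and 61.0 CPM, a log2 ratio of 1.85 (1.20 to 2.52). The cell of 7033 UMIs held 29 of its 55 UMIs, and without the highest cells the ratio was 1.24. In thinned members Dcn was found in 25% (11.5 to 43.4) under deoxycholic acid and 5.77% (1.21 to 15.9) under medium alone.

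Over the list of matrix glycoproteins and matrix enzymes, 33 genes long, 13 were measured. Of these 10 were higher and 3 lower under deoxycholic acid, 6 of them at least 2-fold higher and 0 at least 2-fold lower, with a median log2 ratio of 0.98 beside -0.19 over all measured genes. Without each gene's highest cells the median was 0.62 and the count higher was 10, and without Y-linked members the median was 0.73. Summed, the 33 genes differed less, with a log2 ratio of 0.16 (0.09 to 0.23), since Lgals1 alone made 7495 of 10515 CPM under deoxycholic acid and 7692 of 9406 CPM under medium alone. Timp1, an inhibitor of matrix metalloproteinases, was at 256 CPM under deoxycholic acid and 105.4 CPM under medium alone, a log2 ratio of 1.28 (0.74 to 1.82) that was 0.80 without the highest cells. Fbln2, the elastic fibre protein fibulin-2, was at 260 CPM and 128 CPM, a log2 ratio of 1.03 and of 0.93 without the highest cells. Serpinh1, the chaperone of procollagen, was at 104 CPM and 49.9 CPM, a log2 ratio of 1.06 and of 0.64 without the highest cells. Sparc, which binds collagen, had 284 CPM and 155 CPM, but 36 of its 71 UMIs under deoxycholic acid were in the cell of 21354 UMIs, and its log2 ratio of 0.87 was 0.18 without the highest cells and 0.10 without Y-linked members. Timp2, another metalloproteinase inhibitor, was at 248 CPM and 268 CPM, a log2 ratio of -0.11 (-0.57 to 0.33).

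The collagens themselves were sparse. Of 14 collagen genes 3 were measured, and all 3 were at least 2-fold higher under deoxycholic acid, beside 5.06% of all measured genes. Col6a1, a chain of the beaded collagen VI, stood at 124 CPM under deoxycholic acid and 42.5 CPM under medium alone, with UMIs in 12 of 51 and 13 of 65 members and a log2 ratio of 1.54 (0.72 to 2.39). Col1a1, a chain of the fibre-forming collagen I, stood at 87.9 CPM and 27.7 CPM, in 10 and 9 members, with a log2 ratio of 1.66 (0.65 to 2.72). Col1a2, the other chain of collagen I, had 21 UMIs in 4 members and 4 UMIs in 4 members, and its log2 ratio of 3.50 (1.94 to 5.51) was 1.49 without the highest cells and 1.75 without Y-linked members. All 14 together had 687 CPM under deoxycholic acid and 205 CPM under medium alone, a log2 ratio of 1.74 (1.39 to 2.10), or 1.22 without the highest cell. Members with any collagen UMI numbered 23 of 51 and 39 of 65, and in thinned members the shares were 37.5% and 36.5%. Those thinned members held 42 collagen UMIs in 12 cells under deoxycholic acid and 21 in 19 cells under medium alone.

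Other enriched genes called higher under deoxycholic acid were of mixed function. Hspg2, the basement membrane proteoglycan perlecan, stood at 95.9 CPM under deoxycholic acid and 16.6 CPM under medium alone, in 5 members of each library, with a log2 ratio of 2.53 (1.37 to 3.82). Vcan, the proteoglycan versican, stood at 184 CPM and 73.9 CPM, a log2 ratio of 1.31 that was 0.45 without the highest cells. Dclk1, a microtubule-associated kinase, was at 116 CPM and 37.0 CPM, in 13 and 11 members, with a log2 ratio of 1.65 (0.78 to 2.55) and 1.46 without the highest cells. Pdpn, the membrane glycoprotein podoplanin of fibroblastic reticular cells, had a log2 ratio of 1.37 that became -0.01 without the highest cells, since 42 of its 61 UMIs were in the cell of 7033 UMIs.

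Among contractile genes the largest ratios belonged to 1 cell. Tagln and Acta2, which encode transgelin and smooth muscle actin, had 29 and 30 UMIs under deoxycholic acid and 1 UMI each under medium alone, for log2 ratios of 5.97 (3.38 to 11.32) and 6.02 (3.43 to 11.37). They were found in 2 and 3 deoxycholic acid members and in 1 media control member each. Without the highest cells Tagln had 6 UMIs left under deoxycholic acid and 0 under medium alone, and Acta2 had 3 and 0. Of 19 measured genes of actin and contractile function 11 were higher and 8 lower. At least 2-fold higher were 5 and at least 2-fold lower 0, beside 5.06% and 8.39% of all measured genes. The median was 0.11, and 0.04 without the highest cells. Flna, the actin crosslinker filamin A, was at 412 CPM in 24 members under deoxycholic acid and 135 CPM in 21 members under medium alone, a log2 ratio of 1.61 (1.16 to 2.06), beside 0.50 in the other retained cells. Cnn2, the actin-binding protein calponin-2, was at 91.9 CPM in 7 members and 22.2 CPM in 8 members, a log2 ratio of 2.05 (0.98 to 3.19) and of 2.27 without the highest cells. Vim, the intermediate filament protein vimentin, at 1334 CPM and 1449 CPM, the nuclear lamin gene Lmna, at 471 CPM and 453 CPM, and the annexin gene Anxa2, at 703 CPM and 726 CPM, were nearly level.

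**Figure D3:**
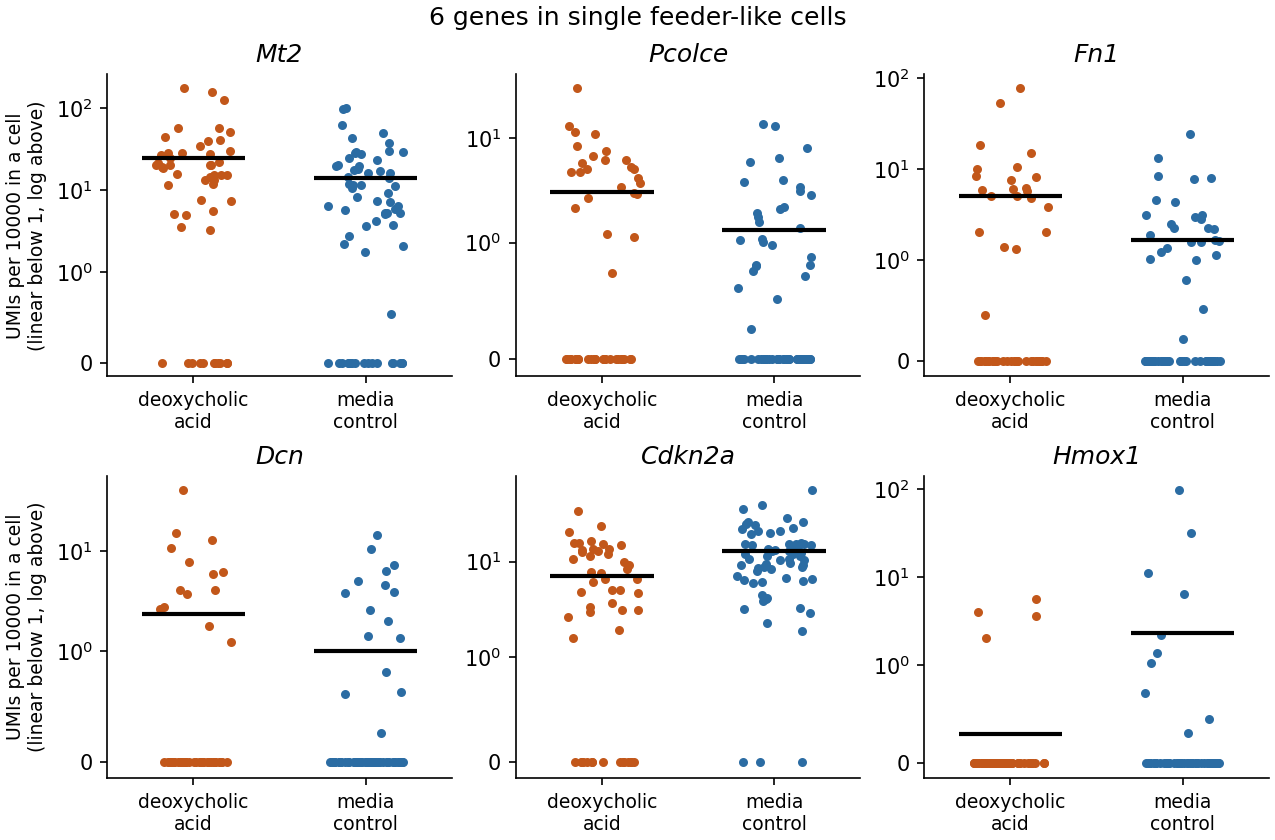
UMIs per 10000 of 6 genes in each feeder-like cell, deoxycholic acid (orange, 51 cells) left of media control (blue, 65 cells), on an axis that is linear below 1 and logarithmic above; black bars are means over cells. Mt2, Pcolce, Fn1 and Dcn have higher means under deoxycholic acid, Cdkn2a and Hmox1 lower ones, and the cells of the libraries overlap for all 6 genes.

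Cdkn2a was lower in the deoxycholic acid members. It stood at 603 CPM under deoxycholic acid and 1085 CPM under medium alone, a log2 ratio of -0.85 (-1.11 to -0.59), short of 2-fold. The per-cell medians were 501 CPM and 1138 CPM and the highest cells 3390 CPM and 5722 CPM, so the ranges overlapped. UMIs were found in 36 of 51 and 62 of 65 members, and in thinned members in 62.5% (43.7 to 78.9) under deoxycholic acid and 86.5% (74.2 to 94.4) under medium alone, against 0% and 0.400% of thinned other cells. Leaving out members with a Y-linked UMI gave -0.53, the value nearest to 0 of 12 alternatives, all below 0. Hmga2, a chromatin protein of fetal and transformed cells and the other marker named for these cells, was at 256 CPM and 316 CPM, a log2 ratio of -0.31 (-0.74 to 0.12).

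Genes of growth arrest, Cdkn2a among them, did not move as one. Of 15 listed genes 7 were measured, 2 higher and 5 lower, where 64.8% of all measured genes were lower. Their median log2 ratio was -0.30. Without each gene's highest cells the median was -0.96, which was the value of Cdkn2a itself. Trp53, which encodes p53, was at 71.9 CPM under deoxycholic acid and 131 CPM under medium alone, a log2 ratio of -0.87 (-1.70 to -0.11). Cdkn1a, the p21 inhibitor that p53 induces, was at 128 CPM and 83.2 CPM, a log2 ratio of 0.62 (-0.08 to 1.31). All 4 measured fetal growth genes were lower, 1 of them at least 2-fold, where 64.8% of all measured genes were lower and 8.39% at least 2-fold lower. Their median was -0.53, and -0.02 with cells weighted equally. Dlk1, the membrane ligand for which AFT024 is known, had 24 UMIs in 13 members under deoxycholic acid and 87 UMIs in 32 members under medium alone, 95.9 CPM and 161 CPM, with a log2 ratio of -0.75 (-1.46 to -0.08). Igf2bp3, an RNA-binding protein of fetal cells, was at 31.96 CPM and 68.4 CPM, a log2 ratio of -1.10 (-2.41 to 0.03) that turned to 1.23 when cells were weighted equally.

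Among the abundant genes of the members, S100a10 was lower, at 2121 CPM under deoxycholic acid and 3464 CPM under medium alone, a log2 ratio of -0.71 (-0.85 to -0.57). It was found in 47 of 51 and 63 of 65 members and kept its sign in 12 of 12 alternatives, with -0.42 without Y-linked members. Ppp1r14b, an inhibitor of protein phosphatase 1, had a log2 ratio of -0.44 (-0.67 to -0.21) and Hmgn1, a nucleosome-binding protein, -0.35 (-0.59 to -0.11), or -0.10 without Y-linked members. Ptms, a small acidic nuclear protein, at 907 CPM and 606 CPM, and St13, a cochaperone of Hsp70, at 1227 CPM and 933 CPM, were higher, with log2 ratios of 0.58 (0.33 to 0.83) and 0.39 (0.18 to 0.60). Under the stricter rule Ptms was at -0.24. Ctsl, the lysosomal protease cathepsin L, had 264 CPM and 641 CPM, but 181 of its 347 UMIs under medium alone were in 1 cell, and without the highest cells its log2 ratio of -1.28 was -0.33.

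Antioxidant genes lay near the level of all measured genes. Of 11 measured genes of this list 2 were higher and 9 lower, with a median log2 ratio of -0.29 beside -0.19 over all measured genes, of which 64.8% were lower. The list's median was -0.10 under median-of-ratios scaling and -0.40 without the highest cells. Prdx1, a peroxide-reducing enzyme, stood at 523 CPM under deoxycholic acid and 821 CPM under medium alone, a log2 ratio of -0.65 (-0.94 to -0.36), in 41 of 51 and 57 of 65 members, and its ratio was -0.36 without Y-linked members and -0.56 in the other cells. Txn1, the redox protein thioredoxin, was at 1346 CPM and 1649 CPM, a log2 ratio of -0.29 (-0.48 to -0.11). The ferritin genes Fth1 and Ftl1, which store iron, were level, with log2 ratios of -0.04 (-0.12 to 0.04) and 0.02 (-0.08 to 0.12).

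Hmox1, the stress-induced enzyme that degrades haem, had 9 UMIs in 4 members under deoxycholic acid and 259 UMIs in 10 members under medium alone, 35.96 CPM and 479 CPM, for a log2 ratio of -3.73 (-4.88 to -2.79). In the media control library 130 of the UMIs were in a cell of 13286 UMIs and 103 in the cell of 32721 UMIs. In thinned members Hmox1 was found in 12.5% (3.51 to 29.0) under deoxycholic acid and 5.77% (1.21 to 15.9) under medium alone, so the shares of cells gave no order that follows the CPM.

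Several transcription factor genes called lower were concentrated in a few media control cells. Cebpb, a factor of inflammatory gene control, had 83.9 CPM in 10 members under deoxycholic acid and 477 CPM in 25 members under medium alone, a log2 ratio of -2.51 (-3.22 to -1.86) that was -1.49 without the highest cells. In the other retained cells, where it is a factor of myeloid differentiation, Cebpb was at 121 CPM and 228 CPM, a log2 ratio of -0.92. Id3, an inhibitor of helix-loop-helix factors, was at 87.9 CPM in 8 members and 329 CPM in 24 members, with a log2 ratio of -1.90 (-2.61 to -1.26) and -2.14 without the highest cells. Sox9, the cartilage regulator, had 2 UMIs and 80 UMIs, Sox4 had 7 UMIs and 95 UMIs, and the stress factor Atf3 had 2 UMIs and 59 UMIs. Of those, 72, 74 and 42 UMIs were in the media control cell of 32721 UMIs. Without the highest cells, 1 and 8 UMIs of Sox9, 5 and 21 of Sox4 and 0 and 17 of Atf3 were left under deoxycholic acid and medium alone. Klf10, a factor induced by TGF-beta, had 4 UMIs and 17 UMIs and was not measured under the rule, with a log2 ratio of -0.98 (-3.01 to 0.64).

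Enzymes and secreted proteins among the genes called lower were concentrated too, with exceptions. Adamts1, a protease of the versican-rich matrix, had 1 UMI under deoxycholic acid and 96 UMIs under medium alone, all in 2 media control cells, for a log2 ratio of -5.47 (-10.79 to -2.96). Rdh10, a retinol dehydrogenase, had 1 UMI and 47 UMIs, 46 of them in 1 cell, and Cxcl5, a neutrophil-attracting chemokine, had 1 UMI and 33 UMIs, 32 in the same cell, so that without the highest cells each had 0 UMIs under deoxycholic acid and 1 under medium alone. Pcolce2, a relative of Pcolce, had 3 UMIs and 30 UMIs, 19 of them in the cell of 32721 UMIs, and its log2 ratio of -2.21 was -1.39 without the highest cells. More evenly spread were Scd1, the desaturase that makes oleate, with 3 UMIs in 3 members and 30 UMIs in 15 members, a log2 ratio of -2.21 (-4.57 to -0.52), and Afdn, the junction protein afadin, with 5 UMIs in 5 members and 44 UMIs in 15 members, a log2 ratio of -2.03 (-3.72 to -0.69). Peg10, an imprinted gene of retroviral origin, had 3 UMIs in 3 members and 29 UMIs in 10 members, a log2 ratio of -2.16 (-4.52 to -0.47).

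Of 6 measured inflammatory stromal genes 3 were at least 2-fold higher and 3 at least 2-fold lower. Over all measured genes the shares were 5.06% and 8.39%. Ccl2, a chemokine for monocytes, was at 148 CPM in 6 members under deoxycholic acid and 318 CPM in 19 members under medium alone, a log2 ratio of -1.10 (-1.66 to -0.59) that was -1.62 without the highest cells and -2.26 without Y-linked members. Ccl7, a related chemokine, was at 99.9 CPM in 9 members and 40.7 CPM in 6 members, a log2 ratio of 1.30 (0.41 to 2.19) and of 1.99 without the highest cells. Tnfaip2, a gene induced by tumour necrosis factor, was at 184 CPM and 83.2 CPM, in 16 members of each library, with a log2 ratio of 1.14 (0.52 to 1.77), beside 0.82 in the other retained cells. Of immediate early genes 7 were measured, 1 higher and 6 lower, where 64.8% of all measured genes were lower. Their median log2 ratio was -0.47, and -1.11 without Y-linked members, beside 0.29 for the same genes in other cells.

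Glycolytic and hypoxia-induced genes were mostly higher by sum, and less so by cell. Of 12 measured genes 11 were higher under deoxycholic acid, 5 at least 2-fold, with a median log2 ratio of 0.77. Of all 2253 measured genes 792 were higher, and 5.06% were at least 2-fold higher. The median was 0.37 without each gene's highest cells, 0.16 with cells weighted equally, 0.06 without Y-linked members and -0.16 in thinned members. Ndrg1, a hypoxia-induced gene, was at 148 CPM in 7 members and 16.6 CPM in 6 members, a log2 ratio of 3.15 (2.07 to 4.39) and 2.83 without the highest cells. Pkm, the pyruvate kinase gene, was at 939 CPM in 35 members and 479 CPM in 50 members, a log2 ratio of 0.97 (0.71 to 1.23) and 0.52 without Y-linked members, and Ldha, lactate dehydrogenase A, at 759 CPM and 579 CPM, 0.39 (0.12 to 0.66) and 0.06 without them. Gapdh, at 2849 CPM and 3144 CPM, was the exception. Gpi1 had a log2 ratio of 1.62 that was -0.10 without the highest cells, as 104 of its 134 UMIs were in the deoxycholic acid cell with 18.2% neutrophil RNA.

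Among the remaining groups, 17 of 20 ribosomal protein genes were lower and 3 higher, near the shift of all measured genes (median log2 ratio -0.25, against -0.19 over all measured genes, and -0.07 under median-of-ratios scaling), while 10 of 12 measured mitochondrially encoded genes were higher and 2 lower (median 0.33, and 0.07 in the other cells). The members' median share of mitochondrial UMIs was 2.79% under deoxycholic acid and 2.47% under medium alone. Of 7 measured genes of the unfolded protein response 6 were higher and 1 lower, with a median of 0.31. Of all 2253 measured genes 792 were higher. Hspa5, the endoplasmic reticulum chaperone BiP, was at 368 CPM and 266 CPM, a log2 ratio of 0.47 (0.07 to 0.85). Proliferation genes had 6 higher and 5 lower of 11, and Top2a, a gene of dividing cells, had 42 of its 47 UMIs under deoxycholic acid in the deepest member, with a log2 ratio of 1.62 that was -0.59 without the highest cells. Chaperones were near level, with a median of -0.04 over 8 genes, although Hsp90aa1 and Hspa8 had log2 ratios of -0.54 (-0.71 to -0.37) and -0.52 (-0.80 to -0.25).

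**Figure D4:**
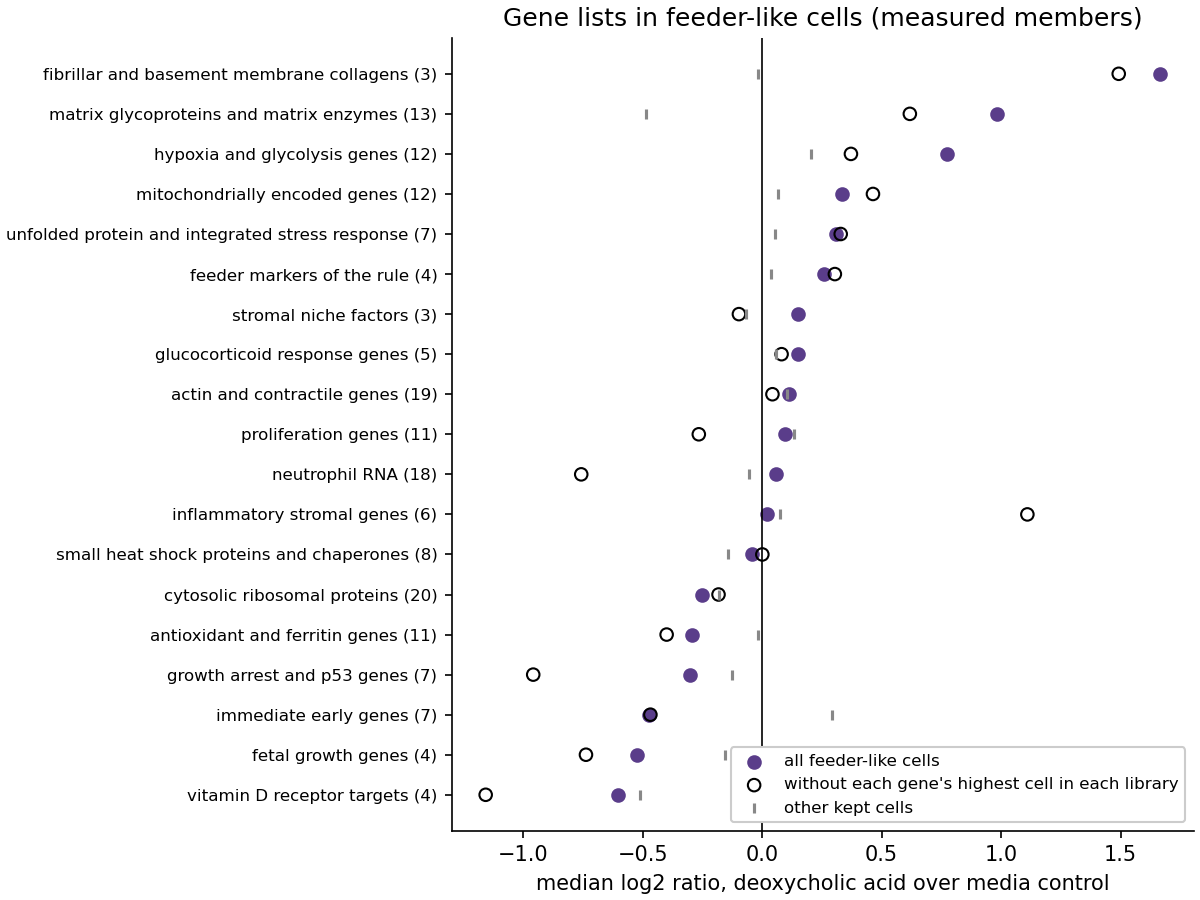
Median log2 ratio of CPM, deoxycholic acid over media control, for each gene list with at least 3 measured members (number in brackets): feeder-like cells (filled), the same without each gene's highest cell in each library (open) and other retained cells (ticks). Among filled circles collagens (1.66) and matrix genes (0.98) lie furthest right, and the lists of inflammatory, neutrophil and growth arrest genes shift most between filled and open circles.

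Outside the enriched genes, Btg1, an inhibitor of proliferation, was at 156 CPM in 12 members under deoxycholic acid and 16.6 CPM in 7 members under medium alone, a log2 ratio of 3.23 (2.16 to 4.46) that was 2.74 without the highest cells. Chd1, a chromatin remodeller, had 2 UMIs in 2 members and 43 UMIs in 13 members, a log2 ratio of -3.31 (-6.41 to -1.37). Cxcl10, a chemokine induced by interferon, had all 26 of its deoxycholic acid UMIs in the cell of 21354 UMIs, and 5 UMIs under medium alone. Cstdc4, Stfa2l1 and Stfa3, cystatin genes of neutrophils that are near-identical copies and may share reads, were lower, and 45 of 86 Stfa2l1 UMIs and 39 of 47 Stfa3 UMIs under medium alone were in the member with 34.2% neutrophil RNA. G0s2, a lipase inhibitor gene, at 24 UMIs and 4 UMIs, had 23 in the deoxycholic acid member with 18.2%. The part of neutrophil RNA in these ratios was not tested beyond these counts.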

How the data were processed

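The deposited table holds UMI counts per gene and cell, raw and whole. Per the submitters' processing notes Cell Ranger 6.0 was used; the sources used here name no genome build. Column names carried the group only, so no sample was told apart and no replicate test was run. From these counts, UMIs were summed over the feeder-like cells of a library and divided by their total to give CPM. The log2 ratio of deoxycholic acid over media control has an exact binomial interval of the UMIs between libraries. This step recovered known ratios on simulated counts that held counting error only. Cells of a simulated library shared the same profile, so the simulation does not cover genes held mostly by 1 cell. A count of 0 was read as at most 3 counts. Named were the 12 largest ratios each way among enriched genes and the 5 each way among others, the 20 most abundant enriched genes, the rule genes, Cdkn2a, Hmga2, Cebpb, Klf10 and the 4 most abundant measured members of each list; other genes were named after their values were seen. The members and lists were chosen with earlier results of these data known. Scrublet (scanpy 1.11.5) called 0.0120% and 0.0110% of cells doublets, too few for the caller to have worked, so doublets were kept and the highest 6% of scores were removed as an alternative. Alternatives covered the rule, the filters, neutrophil RNA, scaling, thinning and single cells; the last, Y-linked members and deepest members were added after seeing the data. Python 3.11.15, numpy 2.4.6, scipy 1.17.1 and pandas 2.3.3 were used.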

Additional observations from a re-analysis of the deposited data

Results flagged for a closer look

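Of the genes named by rule and called at least 2-fold different, 9 moved in opposite directions in feeder-like and other retained cells. The ratios were deoxycholic acid over media control in the same libraries, with both counting intervals clear of 0. The difference between the sets of cells was not tested. Higher in the feeder-like cells and lower in the others were G0s2, with log2 ratios of 3.70 and -0.26, and Nfkbia, with 1.26 and -0.33. Lower in the feeder-like cells and higher in the others were Rdh10, with -4.44 and 0.24, Atf3, with -3.77 and 0.28, Klf4, with -2.89 and 0.67, and Afdn, with -2.03 and 0.21. The neutrophil cystatin genes Cstdc4, with -4.01 and 0.11, Stfa3, with -3.44 and 0.07, and Stfa2l1, with -2.73 and 0.05, did the same. Some of these directions in the feeder-like cells turned under alternatives, which removes the contrast there. Nfkbia was at -0.26 with cells weighted equally, -0.44 in thinned members and -0.67 without Y-linked members. Cstdc4 was at 0.93 under the stricter rule. Rdh10 was at 0.29 in thinned members, but no deoxycholic acid UMI was left there and a count of 0 was read as 3. That value shows no turn of Rdh10. Among the 9 genes, the highest feeder-like cell held between 29.5% (Afdn) and 97.9% (Rdh10) of the gene's UMIs in the higher library. For Cstdc4 it was 36.8%, for Nfkbia 43.3% and for the others more. Genes named after their values were seen are outside this count. Among those, Timp1, with 1.28 and -1.17, Serpinh1, with 1.06 and -4.93, and Mprip, with -1.20 and 0.26, met the same terms. Serpinh1 had 2 UMIs under deoxycholic acid and 85 UMIs under medium alone in the other retained cells.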

How the results depend on the processing

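No paired analysis was possible because the column names carry the group only and no replicate number. The share ratio of feeder-like cells, 0.855, ran from 0.792 to 0.891 over its alternatives. The 114 genes called higher and 189 lower became 28 and 65 in members thinned to 2000 UMIs, where 673 genes were measured, and 1185 and 1107 of 8135 measured genes with a minimum of 5 UMIs, against 2253 measured in the report; enriched genes became 7 higher and 9 lower, and 26 higher. Size factors gave 122 lower. Without Y-linked members 65 were higher, 11 of them enriched, and without each gene's highest cell 65 were higher. Neutrophil RNA, 4.04% and 3.39%, was 1.42% and 0.353% at 6 UMIs and 20 per 10000 of the rule genes, 0.986% and 1.36% without the highest Scrublet scores, and 3.28% in media control members under the looser cell filter. Lists with a median above 0 numbered 7, against 12, with cells weighted equally. Of 119 named genes, 62 kept their sign in every alternative that gave a value and 57 did not, 47 of which were under 2-fold, Ptn, Ptms and S100a8 among them. The 10 that were at least 2-fold are given with each reversed value: under the stricter rule, Top2a (-2.29), Sox4 and Cstdc4 (both 0.93) and Ier3 (0.51). With cells weighted equally Igf2bp3 (1.23), Pcolce2 (0.095), Ier3 (0.51), Top2a (-0.25) and Nfkbia (-0.26) reversed. In thinned members Sox4 (0.12), Top2a (-1.04) and Nfkbia (-0.44) did. Rdh10 (0.29) did so there only because its deoxycholic acid count of 0 was read as 3. Top2a also reversed without the highest Scrublet scores (-0.51), without Y-linked members (-0.43, with Nfkbia at -0.67), without the deepest members (-1.40, with Coro1a at -0.40) and without each gene's highest cell (-0.59, with Pdpn at -0.010). The cause was not tested. With 250299 UMIs under deoxycholic acid, a gene at 0 could stand at up to 11.99 CPM.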

Other observations

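Among genes spread over at least 10 feeder-like cells, several outside the lists were at least 2-fold higher under deoxycholic acid; they were chosen after their values were seen. Tfrc, the transferrin receptor, stood at 128 CPM in 13 members under deoxycholic acid and 40.7 CPM in 12 members under medium alone, a log2 ratio of 1.65 (0.82 to 2.51). Adk, adenosine kinase, stood at 91.9 CPM in 15 members and 24.0 CPM in 9 members, a log2 ratio of 1.94 (0.89 to 3.04). H13, the signal peptide peptidase, stood at 140 CPM and 40.7 CPM, a log2 ratio of 1.78 (0.97 to 2.62), and Rpn1, a subunit of the enzyme that glycosylates proteins in the endoplasmic reticulum, at 192 CPM and 77.6 CPM, a log2 ratio of 1.30 (0.68 to 1.94). None of these genes was enriched in the members, and in the other retained cells their log2 ratios were 0.24, 0.27, 0.09 and 0.46. Over all members Tfrc stood at 68.2 CPM against 220 CPM in the other cells, and Rpn1 at 114 CPM against 136 CPM. Adk, at 45.5 CPM against 42.2 CPM, and H13, at 72.0 CPM against 55.4 CPM, were close. The member with 18.2% neutrophil RNA held 8 of the 32 Tfrc UMIs. The part of RNA from the surroundings was not tested. Cpe, carboxypeptidase E, was with Pcolce 1 of the 2 spread and enriched genes called higher, at 140 CPM in 16 members and 57.3 CPM in 17 members. Spread and enriched genes called lower numbered 8. They included Efemp2, the elastic fibre protein fibulin-4, at 24.0 CPM in 5 members under deoxycholic acid and 66.5 CPM in 22 members under medium alone, a log2 ratio of -1.47 (-3.01 to -0.21), and Mprip, a regulator of myosin phosphatase, at 79.9 CPM in 13 members and 183 CPM in 23 members, a log2 ratio of -1.20 (-1.97 to -0.49).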
